A study of Mus musculus with 12 samples.

Results

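The proteasome genes of mouse hematopoietic stem and progenitor cells were compared between mice labelled WT and mice labelled FancgKO. The members were every gene of the deposited table whose name consists of Psm, a letter from a to g and a number, which gave 48 genes of 35999. LSK cells are bone marrow cells that lack lineage markers and carry Sca-1 and KIT. They had been sorted, and RNA had been sequenced from 12 mice, 6 of each genotype, with 1 library per mouse. The study used these libraries to look for p53 target genes altered by loss of Fancg, a gene of the Fanconi anemia DNA repair pathway. The KO mice are described as Fancg-/-, and neither genotype carried another allele or received an agent as far as the sources used here state. Age, sex, strain and the deleted part of Fancg are not given in the sources used here. The genotypes are called WT and KO below, as the labels give them, and n is 6 libraries in each genotype throughout.

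The deposited values, called signal here, are taken to be estimated read counts over a size factor that scales each library. Depth, inferred from the values, was about 1235110 to 2471413 reads per library. The 15 genes of highest mean signal took 49.0% to 57.1% of all signal. Fancg itself did not separate the labels. Its signal had a lowest, median and highest value of 4.76, 8.59 and 24.1 in WT and of 4.46, 7.91 and 14.5 in KO, so the labels could not be checked with it and the libraries are taken by their labels. WT replicate 3 and KO replicate 7 had a summed signal of 4 Y-linked genes of 26.6 and 49.7, against a median of 307 over all libraries. All 8 LSK markers looked at had a mean signal of at least 10 in both genotypes, none of 6 T-cell and none of 5 erythroid markers did, and 2 of 6 B-cell, 1 of 4 NK-cell, 2 of 5 monocyte and 2 of 6 granulocyte markers did in both. Of 5 dendritic-cell markers 0 in WT and 1 in KO reached it, and of 4 megakaryocyte markers 1 in WT and 2 in KO. Among the LSK markers Ly6a, which encodes Sca-1, was near this cutoff, with a mean of 10.8 over all libraries and values from 4.84 to 17.4.

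The proteasome is the protease that degrades proteins tagged with ubiquitin. Its barrel-shaped core is built of alpha subunits, which form the outer rings and the gate, and of beta subunits, of which Psmb5, Psmb6 and Psmb7 carry the catalytic sites. In immune and hematopoietic cells, and wherever interferon acts, the inducible subunits Psmb8, Psmb9 and Psmb10 take the places of these and give the immunoproteasome, which shapes the peptides presented on MHC class I. The regulatory particle caps the core, with ATPases (Psmc genes) that unfold substrates and non-ATPases (Psmd genes) that bind and strip ubiquitin. Other activators (Psme genes), an inhibitor (Psmf1) and assembly factors (Psmg genes, Psmd5, Psmd9 and Psmd10) complete the family. Hematopoietic stem cells are known for a low rate of protein synthesis and a need for tight control of protein quality.

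No proteasome gene passed a test for a difference between the genotypes. Of the 48 genes, 43 had a mean signal of at least 10 and were tested with limma on log2(signal + 1). None of the 43 had an unadjusted p under 0.05, against 326 of the 8887 genes tested over the whole table, or 3.67%. With a block for the replicate number in the fit, 476 of the 8887 genes had one, and 0 members. Of the 326 genes, 176 were higher and 150 lower in KO, and of the 260 found after scaling to the library total without the 15 genes of highest signal 176 were higher and 84 lower. After Benjamini-Hochberg adjustment over all 8887 genes, 0 members and 0 genes in all passed (0%), and the smallest adjusted p of the table was 0.9996. For 0 members the values of the genotypes did not overlap, which was the case for 8 genes in all, or 0.0900%. The share of members called therefore did not stand above that of the table.

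The differences were small in size as well as uncertain. The log2 differences, KO minus WT, of the 43 genes ran from -0.37 for Psmd5 to 0.36 for Psmd4, with standard errors between 0.15 and 0.38. Of these, 23 lay above 0 and 20 below, with a median of 0.018, beside 0.0031 over all genes tested, of which 50.7% lay above 0. The 95% confidence interval lay within 1 log2 unit of 0 for 42 genes and within 0.5 for 9, so that the interval reached a doubling or halving for no tested member but Psmd4, while smaller changes mostly lay inside it. The interval of Psmd4, a ubiquitin receptor of the regulatory particle, ran from -0.28 to 1.01. The summed signal of all 48 genes was 2406 ± 417 in WT and 2401 ± 436 in KO (mean ± SD). These are bulk samples, in which fewer cells of a type and less RNA per cell cannot be told apart.

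**Figure D1:**
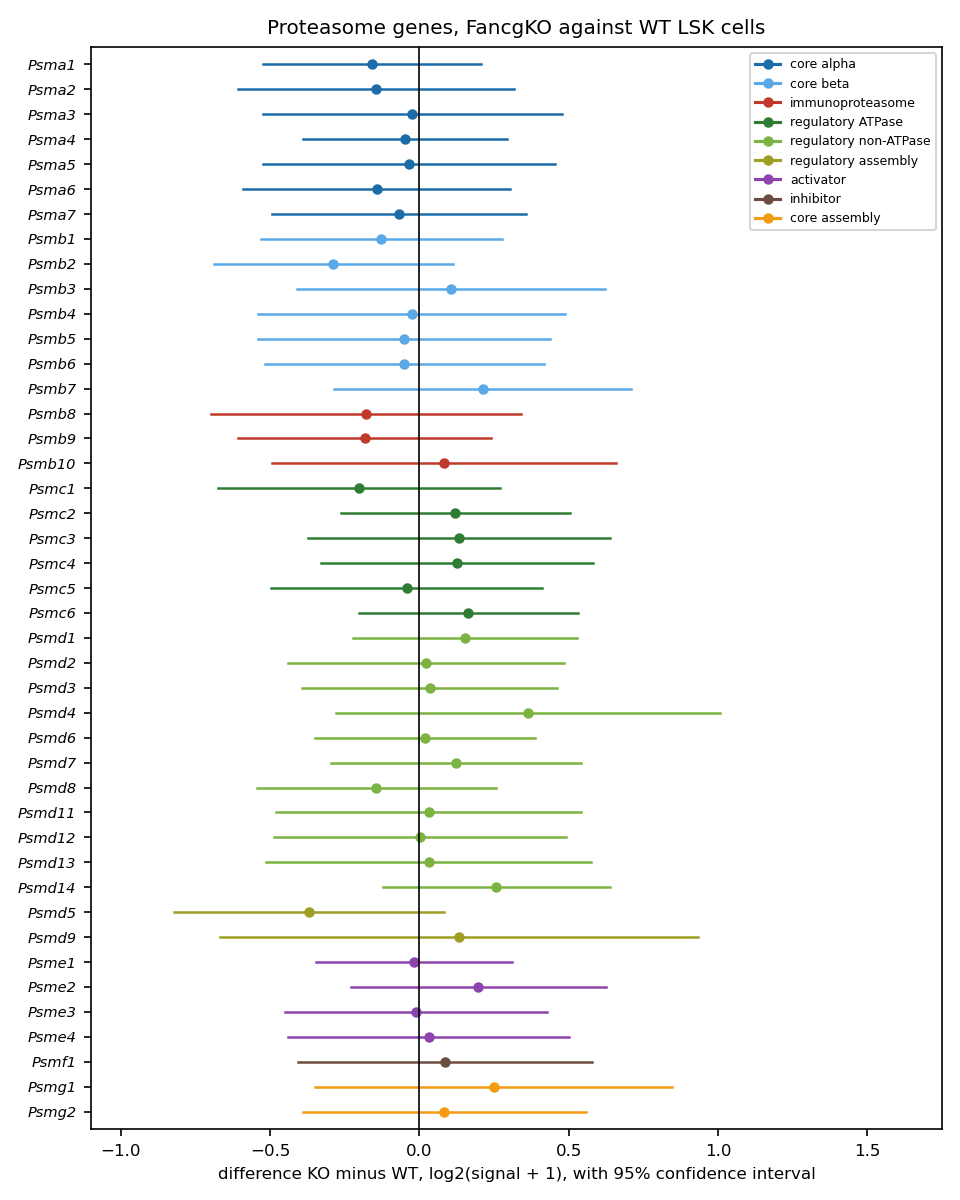
Difference between KO and WT libraries in log2(signal + 1) for the 43 proteasome genes tested, with points for the limma estimate, bars for the 95% confidence interval and colours for the classes. Every bar crosses 0, and the estimates run from -0.37 (Psmd5) to 0.36 (Psmd4).

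Levels were compared between genes as signal per kilobase of the principal transcript. The gene of highest level was Psmb8, the inducible counterpart of Psmb5, with 97.3 ± 34.0 per kilobase (mean ± SD over 12 libraries). It was followed by the alpha subunit gene Psma7 with 93.9 ± 26.6, the activator gene Psme1 with 86.6 ± 13.7, Psmb7 with 83.6 ± 28.6 and the beta subunit gene Psmb1 with 82.0 ± 19.8. These neighbours differed by less than their spread over libraries, and their order depends in part on the length used. With the length of all exons together, Psmb8 stayed at rank 1 and Psme1 at rank 3, while Psma7 came at rank 11. The lowest levels were those of Psmb11, the thymus-specific beta subunit, with 0.62 ± 0.32, of the activator gene Psme4 with 2.69 ± 0.66 and of Psma8, the testis-specific alpha subunit, with 3.29 ± 2.68. Among tested genes, core subunits ran from 22.8 to 93.9 per kilobase with a median of 49.9, and regulatory particle subunits from 8.61 to 58.5 with a median of 32.9.

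**Figure D2:**
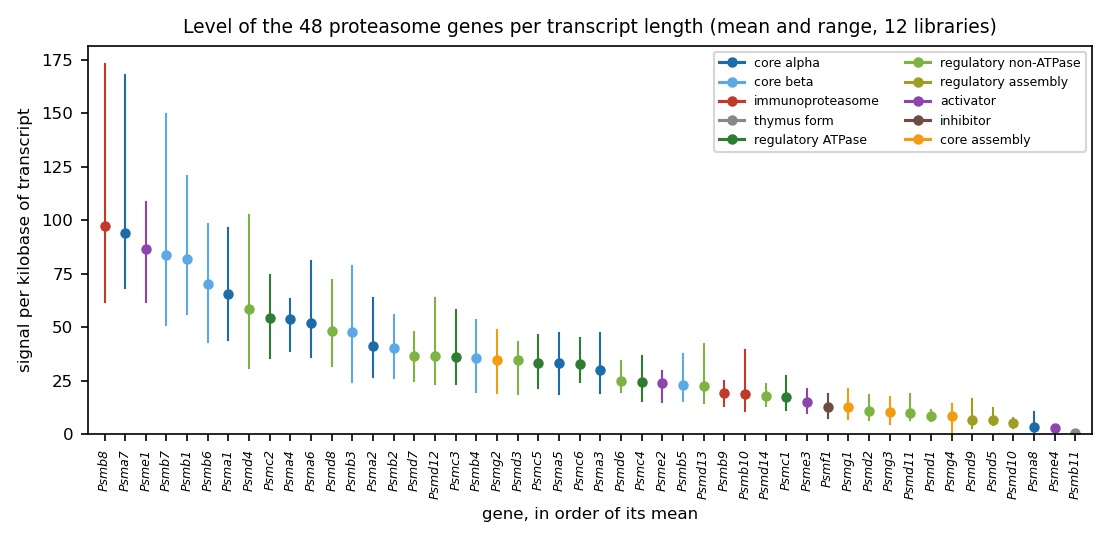
Level of all 48 proteasome genes as signal per kilobase of the principal transcript, in order of the mean, with points for the mean and bars from the lowest to the highest of 12 libraries. Psmb8 leads with a mean of 97.3 and Psmb11 is last with 0.62, and the bars of neighbours overlap.

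The catalytic subunits are shown first because the inducible and constitutive forms compete for the same places in the core. Psmb5 carries the chymotrypsin-like site. Its signal was 17.1, 19.1 and 25.7 in WT (lowest, median, highest) and 13.8, 18.8 and 33.9 in KO. The KO values spanned the WT values on both sides, and the log2 difference was -0.05 ± 0.23 (SE, exact permutation p = 0.842). Its inducible counterpart Psmb8 had a signal of 110, 143 and 282 in WT and of 101, 148 and 209 in KO. The highest value was that of WT replicate 4, the groups overlapped over most of their range, and the log2 difference was -0.18 ± 0.24 (exact p = 0.528). Without WT replicate 4 it was -0.017, and with any other library left out in turn it ran as low as -0.29.

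Psmb6 carries the caspase-like site. Its signal was 39.7, 56.0 and 78.4 in WT and 34.3, 60.4 and 75.2 in KO, with a log2 difference of -0.05 ± 0.22 (exact p = 0.835). The inducible counterpart Psmb9 had 18.5, 30.2 and 33.0 in WT and 18.1, 23.7 and 33.5 in KO. The KO median was the lower, but the range of KO enclosed that of WT, and the difference was -0.18 ± 0.20 (exact p = 0.320). Psmb7, which carries the trypsin-like site, had 58.9, 86.2 and 143 in WT and 72.1, 88.3 and 174 in KO, with a difference of 0.21 ± 0.23 (exact p = 0.435). In both genotypes the highest Psmb7 value was that of replicate 6. Its counterpart Psmb10 had 14.3, 23.5 and 31.9 in WT and 16.2, 19.98 and 51.4 in KO, with a difference of 0.08 ± 0.27 (exact p = 0.792). KO replicate 4 alone lay above the WT range of Psmb10.

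**Figure D3:**
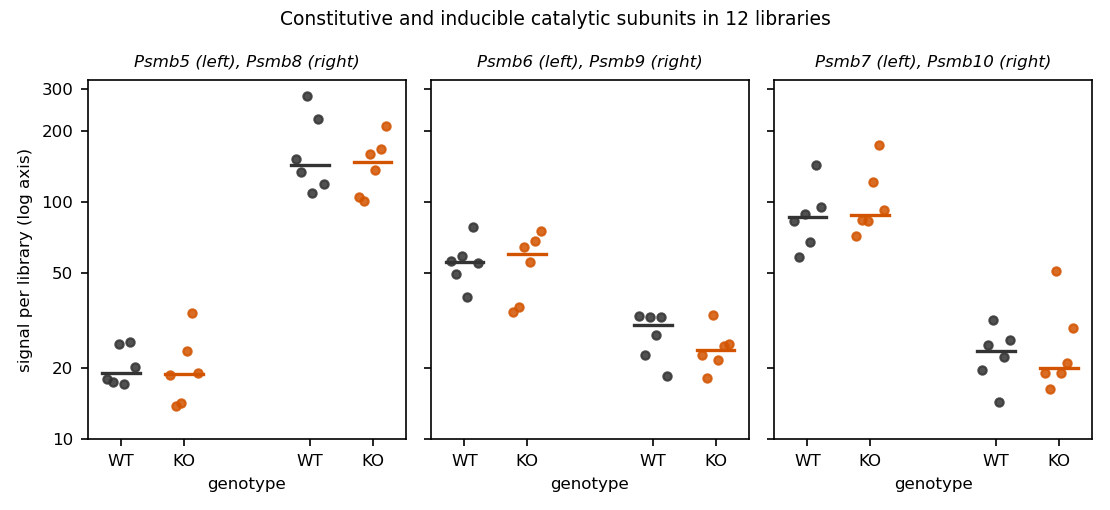
Signal per library, on a log axis, of each constitutive catalytic subunit gene (left in each panel) and its inducible counterpart (right) in WT (grey) and KO (orange), with bars for the median of 6 libraries. The genotypes overlap for every gene, Psmb8 lies above Psmb5 with medians of 143 and 19.1 in WT, and Psmb9 and Psmb10 lie below Psmb6 and Psmb7.

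The balance of the inducible and constitutive forms differed between the 3 pairs and not detectably between the genotypes. Per kilobase, Psmb8 exceeded Psmb5 in 12 of 12 libraries, with a ratio of 4.14 (median; range 2.72 to 6.25). Psmb9 exceeded Psmb6 in 0 of 12 libraries, at a ratio of 0.284 (range 0.196 to 0.410), and Psmb10 exceeded Psmb7 in 0 of 12, at 0.222 (range 0.107 to 0.544). With the length of all exons together the medians were 1.99, 0.246 and 0.502, and the last of these reached 1.23 in a library. The log2 ratio of signal + 1, on which library scaling acts only through the pseudocount, was 2.92 ± 0.34 in WT and 2.79 ± 0.50 in KO (mean ± SD) for Psmb8 to Psmb5. It was -0.99 ± 0.37 and -1.13 ± 0.37 for Psmb9 to Psmb6, and -1.89 ± 0.51 and -2.02 ± 0.81 for Psmb10 to Psmb7. Each of the 3 ratios was lower by 0.13 in KO on average, with p = 0.606, 0.537 and 0.751 by two-sided exact permutation of the 12 libraries and p = 0.751 for each after Benjamini-Hochberg adjustment over the 3 exact tests. With each library left out in turn, the difference ran from -0.25 to -0.022 for Psmb8 to Psmb5 (nearest 0 without KO replicate 6 or WT replicate 4), from -0.24 to -0.036 for Psmb9 to Psmb6 (nearest 0 without WT replicate 5) and from -0.39 to 0.068 for Psmb10 to Psmb7 (above 0 without KO replicate 6 or WT replicate 3).

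Psmb8 and Psmb9 lie together in the MHC class II region with the peptide transporter genes Tap1 and Tap2. In GENCODE M21 (GRCm38), Psmb9 (ENSMUSG00000096727.3) lies at chr17:34181987-34187764 on the minus strand, Tap1 at chr17:34187553-34197225, Psmb8 (ENSMUSG00000024338.15) at chr17:34197721-34201454 and Tap2 at chr17:34203527-34216321, all 3 on the plus strand. Exons of Psmb9 and Tap1 overlap at their 5′ ends, and the antisense gene Gm20496 overlaps exons of Psmb8. Whether reads were assigned by strand is not given in the sources used here, so reads from such overlaps cannot be told apart. Psmb10 (ENSMUSG00000031897.9) lies at chr8:105935735-105938444 on the minus strand, with no other gene over its exons. Psmb5 (ENSMUSG00000022193.7) lies at chr14:54614119-54618022 on the minus strand, Psmb6 (ENSMUSG00000018286.6) at chr11:70525367-70527858 on the plus strand and Psmb7 (ENSMUSG00000026750.6) at chr2:38588036-38644087 on the minus strand.

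Promoter sequence is shown for 4 of these genes because the constitutive and inducible subunits are known targets of different factors. NRF1, the product of Nfe2l1, binds antioxidant response elements in proteasome promoters, NF-Y binds CCAAT boxes, and interferon acts on the inducible genes through interferon-stimulated response elements, which IRF1 binds, and gamma-activated sites. The stretches come from RefSeq (GRCm38.p6), read on the strand of the gene, and end before the first annotated exon except where stated. Capitals mark the match to the motif, and positions count from the RefSeq start of the gene. In Psmb5 (chr14:54618023-54618245, minus strand) and Psmb6 (chr11:70525107-70525356, plus strand) capitals mark the antioxidant response element letters TGACNNNGC, with the first base at -47 and -9. In Psmb8 (chr17:34198087-34198116, plus strand) they mark the gamma-activated letters TTCNNNGAA at -97, and in Psmb9 (chr17:34187322-34187351, minus strand) a CCAAT box on the opposite strand at -8. The last 2 stretches lie within annotated exons of Psmb8 and Psmb9 that begin further upstream.
Psmb5: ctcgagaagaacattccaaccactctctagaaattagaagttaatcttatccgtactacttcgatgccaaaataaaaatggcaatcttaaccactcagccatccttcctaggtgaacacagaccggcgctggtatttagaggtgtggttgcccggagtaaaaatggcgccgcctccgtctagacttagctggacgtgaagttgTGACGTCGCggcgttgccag
Psmb6: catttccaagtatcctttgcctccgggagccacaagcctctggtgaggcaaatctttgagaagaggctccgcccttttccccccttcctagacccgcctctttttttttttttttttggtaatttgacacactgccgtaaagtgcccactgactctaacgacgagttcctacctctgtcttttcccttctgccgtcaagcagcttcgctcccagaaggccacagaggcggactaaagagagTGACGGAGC
Psmb8: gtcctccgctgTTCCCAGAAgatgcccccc
Psmb9: cgcgcagccgctgATTGGaaagccgagccc

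Over the family these motifs were about as frequent as elsewhere, with the interferon-stimulated response element as the most unequal. Promoters of 40 of the 48 members were in the RefSeq table, as windows of 300 bases that reach from 250 before to 50 after the start, and both strands were searched. TGACNNNGC was found in 6 of the 40 (15%), among them Psmb5, Psmb6 and Psmc6, beside 14.97% of 16907 genes. The letters CCAAT were found in 14 (35.0%) beside 41.8%, GAAANNGAA, the interferon-stimulated response element, in 7 (17.5%) beside 9.50%, and TTCNNNGAA in 3 (7.5%) beside 8.99%. The 7 members with GAAANNGAA were Psmb3, Psmb4, Psmc2, Psmd4, Psmd9, Psme1 and Psmg4. Psme1 belongs to the interferon-inducible activator, and none of the 7 is Psmb8, Psmb9 or Psmb10. The windows of Psmb8 and Psmb9 that gave the stretches above lie inside the annotated genes and do not reach the sequence before them. A match in letters is a description of the window and not a binding site.

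The core subunits lay slightly lower in KO and the regulatory particle subunits slightly higher, each within error. All 7 alpha subunit genes tested had an estimate below 0, from -0.16 to -0.02. Psma1, whose estimate had the smallest p of the alpha genes, had a signal of 67.7, 77.4 and 116 in WT and of 52.7, 76.9 and 94.2 in KO. The medians of Psma1 were close and the groups overlapped, with a log2 difference of -0.16 ± 0.17 (exact p = 0.374). Of the 7 constitutive beta subunit genes, 5 lay below 0 and 2 above, from -0.29 for Psmb2 to 0.21 for Psmb7. Psmb2, a structural beta subunit, had 31.2, 37.0 and 47.7 in WT and 22.7, 29.7 and 42.7 in KO. The KO median lay below every WT value of Psmb2, yet the ranges overlapped, and the difference of -0.29 ± 0.19 had an exact p of 0.121. Together 12 of 14 core genes lay below 0, with a median of -0.05. This count turned on a few libraries: without WT replicate 6 it was 6 of 14 with a median of 0.03, without KO replicate 2 7 of 14 and without KO replicate 3 6 of 14. Scaling to the library total without the 15 highest genes gave 9 of 14.

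The 6 ATPase genes of the regulatory particle ran from -0.20 for Psmc1 to 0.16 for Psmc6, 4 of them above 0. Psmc6 had a signal of 54.3, 69.5 and 80.9 in WT and of 59.4, 75.2 and 100 in KO, with a difference of 0.16 ± 0.17 (exact p = 0.342). Of the 11 non-ATPase genes 10 lay above 0 and Psmd8 below, at -0.14. Psmd14, the deubiquitinase that cuts ubiquitin chains from substrates, had 21.9, 23.2 and 31.8 in WT and 20.4, 30.2 and 36.5 in KO. Its KO median was close to the highest WT value, and the difference of 0.26 ± 0.18 had an exact p of 0.113. Psmd4 had the largest positive estimate, 0.36 ± 0.30 (exact p = 0.318), with 41.1, 55.5 and 135 in WT and 50.05, 81.7 and 137 in KO. Without WT replicate 4, the library with the highest WT value, its difference was 0.58 and passed an unadjusted p of 0.05 in limma (adjusted p = 0.9996). In that fit 276 of 8887 genes passed. Without WT replicate 3 and KO replicate 7 the difference of Psmd4 was 0.13. In all, 14 of 17 regulatory particle genes lay above 0, with a median of 0.03. Without WT replicate 6 the count was 15 of 17 and the median 0.18, and without KO replicate 3 they were 14 of 17 and 0.15. Without KO replicate 7 the count was 8 of 17 and the median -0.00056, and without KO replicate 7 and WT replicate 3 together it was 7 of 17 and the median -0.06.

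Within each library, the mean log2 signal of the core genes exceeded that of the regulatory particle genes by 0.40 ± 0.11 in WT and by 0.27 ± 0.20 in KO, a difference of -0.13. The range was 0.26 to 0.55 in WT and -0.07 to 0.47 in KO, so that the genotypes overlapped. Library scaling acts on this difference only through the pseudocount of 1. It is given as a description of the members, without a test.

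Among the remaining members, Psmd5, a chaperone of the ATPase ring, had the largest difference among the 43 genes tested. Its signal was 24.8, 31.6 and 53.8 in WT and 18.0, 24.9 and 32.5 in KO. The highest value was that of WT replicate 6, and the other 5 WT libraries lay within 24.8 to 34.0. The difference was -0.37 ± 0.21 (exact p = 0.0974, limma p adjusted over all genes 0.9996). Without WT replicate 3 and KO replicate 7, low in Y-linked transcripts, it was -0.51 and passed an unadjusted p of 0.05 in limma (adjusted p = 0.969), and without WT replicate 6 it was -0.23 and did not. The other assembly factor tested, Psmd9, had a difference of 0.13 ± 0.38, the least certain of all 43.

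The 4 activator genes had differences from -0.02 to 0.20, of which 2 lay above 0. Psme2, which forms the interferon-inducible activator with Psme1, had 14.7, 22.2 and 28.3 in WT and 17.9, 25.3 and 28.1 in KO, a difference of 0.20 ± 0.20 (exact p = 0.271). The inhibitor gene Psmf1 had 28.3, 47.8 and 62.4 in WT and 32.02, 50.2 and 71.9 in KO, a difference of 0.09 ± 0.23 (exact p = 0.703). Of the core assembly factors, Psmg1 had 8.60, 11.3 and 14.8 in WT and 7.31, 13.8 and 22.1 in KO, a difference of 0.25 ± 0.28 (exact p = 0.361). Psmg2 had a difference of 0.08.

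Psma8, Psmb11, Psmd10, Psmg3 and Psmg4 had a mean signal below 10 and were not tested with limma. In 4 of them the genotypes overlapped widely, with exact permutation p between 0.366 and 0.883. Psmb11, named here after its values were seen, had 0, 2.03 and 3.46 in WT and 2.19, 3.80 and 4.21 in KO. Its log2 difference was 0.86 with p = 0.013 by exact permutation of the 12 libraries, and limma without the filter gave 0.0399, or 0.889 adjusted over the genes then tested. These values rest on about 0 to 4.56 reads per library, and 1 WT library was at 0. In GENCODE M21, 5.45% of the 31-base stretches of Psmb11 also occur in transcripts of other genes, 2679 in all. Whether its few reads came from such stretches was not tested.

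The proteasome genes varied together over the libraries, in part. After the mean of each genotype was taken off, the median correlation between pairs of the 43 genes over the 12 libraries was 0.32, beside 0.01 for 7051 genes with means in the same range. Within the 14 core genes it was 0.63, within the 17 regulatory particle genes 0.27 and between both 0.43. For the 3 inducible genes it was 0.56 among themselves and 0.35 with the core. Of the 43 genes, 28 had a correlation above 0.5 with the mean of the other members, led by Psmd7 (0.90), Psmb4 (0.88), Psma3 (0.88) and Psmb6 (0.86), and 3 lay below 0, namely Psmd9, Psmf1 and Psme4. The points of these correlations are the same 12 libraries, which share their depth and composition across genes, and no test was made.

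Both replicate 6 libraries had the highest levels over all members and over the core genes, but not in every class. The median member lay above its mean over the libraries by 0.35 in WT replicate 6 and by 0.30 in KO replicate 6, with -0.41 to 0.19 in the other 10 libraries. For the core genes the medians were 0.52 and 0.30, and the other libraries ran from -0.48 to 0.23. For the regulatory particle they were 0.24 and 0.31, of which the first lay below the 0.26 of KO replicate 7. For the inducible subunits they were 0.35 and -0.05, with -0.49 to 0.44 in the others. The summed signal of the members was 3129 and 2974, with 1872 to 2819 in the others. At the other end, the 3 lowest medians were those of KO replicate 3 (-0.41), KO replicate 2 (-0.28) and WT replicate 3 (-0.24). Leaving out both replicate 6 libraries lowered the median correlation between members from 0.32 to 0.25, and median-ratio rescaling of all libraries lowered it to 0.24.

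**Figure D4:**
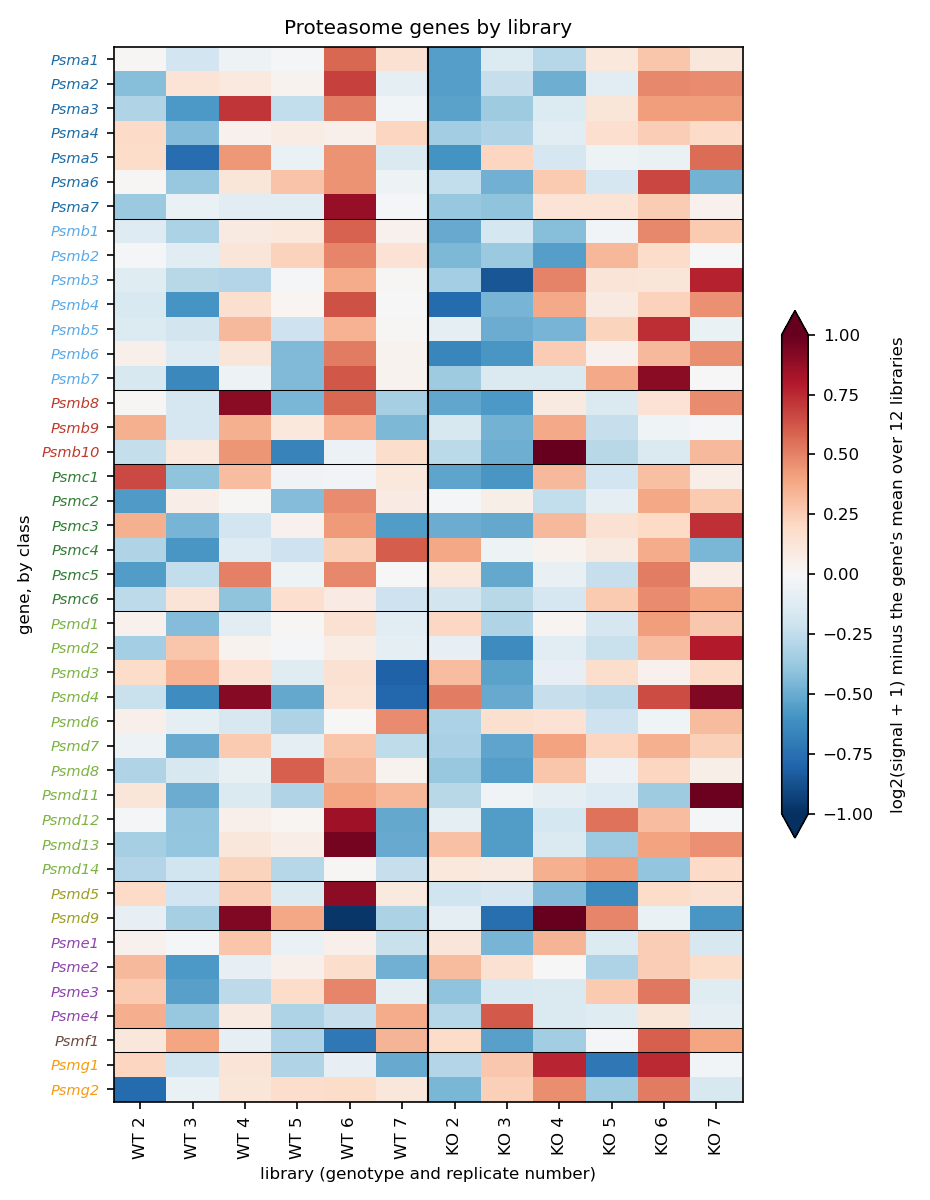
Each proteasome gene tested (rows, grouped and coloured by class) in each library (columns, WT left of the line and KO right), as log2(signal + 1) minus the mean of the gene over 12 libraries, with red above and blue below. The columns of WT 6 and KO 6 are mostly red, with medians of 0.35 and 0.30, and those of KO 2 and KO 3 mostly blue.

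Other measures moved with these libraries. Mpo and Elane, granule protein genes of granulocyte and monocyte progenitors, had a signal of 1513 and 253 in WT replicate 6 and of 1650 and 270 in KO replicate 6. In the other 10 libraries Mpo ran from 255 to 754 and Elane from 6.02 to 92.5. The summed signal of the 6 granulocyte markers was 263 to 1766 in WT and 353 to 1922 in KO, with Ly6g at 0 in every library. S100a8, S100a9 and Ltf were at most 1.16, 2.54 and 0.14 in any library, so the sum was mostly Mpo and Elane. Hlf, a transcription factor gene of hematopoietic stem cells, was 38.4 and 38.7 in the replicate 6 libraries and 73.3 to 136 in the others. No other LSK marker looked at set both libraries apart. Kit was 302 and 283, with 299 to 435 in the others. KO replicate 6 was the lowest library for Kit, Ly6a, Cd34, Flt3, Gata2 and Mecom but not for Meis1. WT replicate 6 lay within the range of the other 10 libraries for each of these genes. The share of all signal taken by Lars2 was 36.2% and 35.1% in the replicate 6 libraries and 15.6% to 32.3% in the others, and it was 15.6% to 19.0% in replicates 2 and 3. The part of cell composition and of library composition in the proteasome levels was not tested.

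Genes that serve or control the proteasome were compared from 3 lists of 41 genes, of which 39 were tested. Of the 24 cofactors, ubiquitin genes and supply factors tested, 0 had an unadjusted p under 0.05, with 7 estimates above 0 and 17 below. Pomp, the maturation factor of the core, had 10.7, 11.5 and 22.01 in WT and 3.00, 10.2 and 22.8 in KO, a difference of -0.29 ± 0.37 (exact p = 0.526). Its values rest on about 2.78 to 29.98 reads per library. Of the 7 genes for control of proteasome transcription 0 passed, with 5 above 0 and 2 below. Nfe2l1, which encodes NRF1, had 61.9, 81.7 and 108 in WT and 47.9, 100 and 132 in KO, a difference of 0.22 ± 0.23 (exact p = 0.385). Without KO replicate 5, the lowest KO library for it, the difference was 0.42 and passed an unadjusted p of 0.05 in limma (adjusted p = 0.9993). In that fit 341 of 8893 genes passed.

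Of the 8 antigen processing genes tested, 1 had an unadjusted p under 0.05, higher in KO, where 1.98% of all genes tested were called in that direction. This was Nlrc5, the transactivator of MHC class I and of Psmb9 and Tap1. Its signal was 29.8, 49.98 and 102 in WT and 54.8, 76.3 and 162 in KO. Replicate 7 was the highest in both genotypes, and the groups overlapped. The log2 difference was 0.71 ± 0.30 (limma p = 0.032, adjusted over all genes 0.9996), and the exact permutation test gave p = 0.0801. Without WT replicate 4, WT replicate 6 or KO replicate 7 the difference was 0.56, 0.56 or 0.52. None of these passed an unadjusted p of 0.05 in limma, nor did the 0.61 without WT replicate 3 and KO replicate 7. Nlrc5 was higher in KO at 6 of 6 replicate numbers. Limma with a block for the replicate number gave it an unadjusted p of 0.0013 and an adjusted p of 0.889. Of its known targets, Psmb9 was at -0.18 ± 0.20, as given above, and Tap1 had a difference of 0.12 ± 0.22 (exact p = 0.686) with 120, 138 and 201 in WT and 125, 134 and 305 in KO. Irf1, an interferon-induced regulator of the inducible subunits, had 20.5, 28.6 and 44.5 in WT and 17.7, 27.6 and 46.3 in KO, a difference of -0.05 ± 0.23 (exact p = 0.844).

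Several members have near-identical copies that could take part of their reads. Over stretches of 31 bases in GENCODE M21 transcripts, 13 of the 48 genes shared none with another gene, 13 shared over 10% and 9 over 20%. Psmb5 shared 71.7% of its stretches, mostly with the processed pseudogene Gm3375, whose signal was 0 to 1.41 in the 12 libraries. Psma5 shared 61.0%, most with the processed pseudogene Gm8394, whose signal was 0 to 1.92. Psme2 shared 33.5% with Psme2b, which had 0 to 13.3 beside a mean of 22.9 for Psme2. The processing notes name kallisto, but neither its version nor the annotation used is given. The levels of Psmb5, Psma5 and Psme2 are therefore uncertain to the extent that reads fit such copies. With the signal of its copies added to Psmb5, the log2 ratio of Psmb8 to it was lower in KO by 0.10 on average (exact permutation p = 0.690).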

How the data were processed

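RNA-seq of LSK cells from 12 mice was analysed, 6 labelled WT and 6 labelled FancgKO, with replicate numbers 2 to 7 in each. The kit was CATS RNA-seq v2. The authors deposited 1 signal per gene and library, taken from the values to be an estimated count divided by a size factor. The submitters' processing notes name kallisto without a version, and the mouse build and annotation are not given in the sources used here. Depth was read from the most frequent low value, taken as 1 read. Only 10.1% to 11.0% of values were whole multiples of it (tolerance 0.0001), so no count test was used. All columns were matched to libraries by their labels, and 0 were left unused.

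A mean signal of 10 or more was required, and log2 values were tested (pseudocount 1) with limma 3.58.1 in R 4.3.3, two-sided, with a mean trend in the empirical Bayes step, no covariate and p adjusted by Benjamini-Hochberg over all 8887 genes that passed the filter. Single genes and ratios were also tested by two-sided exact permutation of the log2 values over the libraries, which is the test meant by exact p. Fold changes are on the log2(signal + 1) scale and understate changes of low genes. The limma step was tested on simulated data. P-values measure the spread between 12 mice, and counting error is part of it. GENCODE M21 (GRCm38) gave positions and lengths, which holds 35929 of the gene names.

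The members, classes, related lists and markers were chosen with earlier results of these data known. Values are given for Psmb5 to Psmb10, for the member of smallest p in each class, for any member with an unadjusted p under 0.05 with or without the replicate block, for Pomp, Nfe2l1, Tap1 and Irf1, and for any related gene with an unadjusted p under 0.05. Psmd4, Psmb11, Mpo, Elane, S100a8, S100a9, Ltf, Ly6a, Hlf, Ebf1 and Lars2 were added after their values were seen. The correlation between members and the comparison of core with regulatory particle within libraries were also added then. Paaf1 was not analysed here, and Tap2 fell below the filter. Alternatives were other pseudocounts (0.5 and 5), filters (none, and a mean of 50) and normalizations (quantile, median ratio, library total without 15 genes), a fit without the trend, a block for the replicate number, fits that leave out each library, and a fit without WT replicate 3 and KO replicate 7.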

Additional observations from a re-analysis of the deposited data

Results flagged for a closer look

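For each named gene, pair ratio and class sum, the highest and the lowest library of each genotype were compared with the nearest of the other libraries by Dixon's criterion for 6 values. Of 54 such groups, 5 met it. Chance alone would flag about 1 in 20 groups, or 2.7 of 54, if the groups were independent and their values normally distributed. These groups share libraries, and ratios and class sums share genes with other groups, so the 2.7 is a rough guide only.

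Psmb10 was 51.4 in KO replicate 4 and 16.2 to 29.3 in the other 5 KO libraries. Tap1, the peptide transporter gene, was also far from the rest in that library, at 305 against 125 to 171. Psmd5 was 53.8 in WT replicate 6, with 24.8 to 34.0 in the other WT libraries. Pomp, which guides maturation of the core, was 22.01 in WT replicate 4 and 10.7 to 12.1 in the other WT libraries. Its values rest on few reads, about 2.78 to 29.98 per library. Nlrc5 was 162 in KO replicate 7, with 54.8 to 83.5 in the other KO libraries.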

How the results depend on the processing

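The count of members past an adjusted p of 0.05 was 0 under every alternative run. The count past an unadjusted p of 0.05, 0 as reported, was 1 without a filter on low values (Psmb11), 1 without WT replicate 3 and KO replicate 7 (Psmd5), and 0 to 1 when each library was left out in turn (Psmd4, without WT replicate 4). The count of related genes past it, 1 as reported, was 0 without WT replicate 3 and KO replicate 7 and 0 to 2 when each library was left out. With fewer than 6 libraries in a genotype the spread is estimated from fewer samples, and the cause was not tested. Of all genes tested, 326 had an unadjusted p under 0.05 as reported, 836 of 21536 without a filter and 91 of 3119 with a mean of at least 50, which differ in the genes tested. Such genes numbered 398 of 8842 without WT replicate 3 and KO replicate 7. They numbered 276 of 8887 without WT replicate 4 and 341 of 8893 without KO replicate 5.

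Among single genes, the sign of the difference turned in some of the fits that left out 1 library, with ranges of -0.20 to 0.043 for Psmb5, -0.15 to 0.075 for Psmb6, -0.13 to 0.19 for Psmb10, -0.048 to 0.20 for Psmf1, -0.51 to 0.0054 for Pomp, -0.070 to 0.22 for Tap1 and -0.18 to 0.086 for Irf1. The difference of the log2 ratio of Psmb10 to Psmb7 ran from -0.39 to 0.068. For the 19 genes named by the rule, no sign turned under the other alternatives.

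The replicate numbers were not taken as pairs in the main fit. Its p-values and the exact p therefore include any spread that same-numbered libraries share. Same-numbered libraries had correlations of their deviations from the genotype means between 0.09 and 0.36 (mean 0.20), not all over 0.1, and 9 of 12 libraries were closest to their own number in the other genotype. The fit with the replicate block called 476 genes at an unadjusted p of 0.05 (248 higher and 228 lower in KO), of which 0 were members, and 0 passed after adjustment. Nlrc5 was higher in KO at 6 of 6 replicate numbers, and with the block limma gave it an adjusted p of 0.889 (unadjusted 0.0013). Depth limits the members of low signal most, since Psmb5 and Psmg1 rest on 11.8 to 34.3 and 7.68 to 28.3 reads per library.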
